A study of Mus musculus with 13 samples.

Results

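The genes described here are 30 genes of cholesterol synthesis and the sterol response, taken by name from 24394 gene symbols in one count table of 13 mouse RNA libraries. They comprise 18 enzymes that build cholesterol from acetyl-CoA, 5 regulators of the sterol regulatory element-binding proteins (SREBP), 3 sterol carriers, and 4 efflux pumps and liver X receptors. All 30 were present in the table and passed the filter on low counts. The cultured libraries came from primary mouse embryonic fibroblasts (MEF) that are heterozygous for iFoxn1, a copy of the transcription factor gene Foxn1 that Cre recombinase switches on. The MEF group (n = 2, E13.5 embryos, no treatment) had not received Cre. The day 2 (n = 2) and day 10 (n = 3) groups were taken at those times after the plasmid pPGK-Cre-bpA was delivered by nucleofection. At day 12, cells were sorted by the epithelial surface protein Epcam into an Epcam-positive group (n = 2) and an Epcam-negative group (n = 2). Fetal thymic epithelial cells (fetal TEC, n = 2, E15.5 embryos, no treatment) were the study's positive control, and the labels give no genotype for them. The labels do not say whether replicates are separate embryos or cultures, so p-values measure the spread between these libraries, which may be technical.

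Cholesterol is made in the endoplasmic reticulum and cytosol along the mevalonate pathway. Acetyl-CoA is built up to mevalonate and on to isoprenoid units, these are joined to squalene, and squalene is closed to lanosterol and trimmed to cholesterol. When sterols in the endoplasmic reticulum run low, Scap carries the SREBP transcription factors to the Golgi, where they are cut free to activate the synthesis genes. When sterols are plentiful, the Insig proteins hold Scap back, and oxysterols activate the liver X receptors, which raise the efflux pumps Abca1 and Abcg1. In these bulk samples fewer cells of a type and less RNA per cell cannot be told apart.

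Totals ranged from 35805780 to 86465460 counts per library. Foxn1 itself, the induced gene, stood at 18.3 and 13 CPM (counts relative to the scaled library total) in MEF and at 292 to 468 CPM in the cultures that had received Cre, against 362 CPM in each fetal TEC library. The sum of 9 thymic epithelium markers was 16.5 and 21.3 CPM in MEF, 1457 and 1465 CPM at day 2, 4925 to 5375 CPM at day 10, and 32432 and 48814 CPM in fetal TEC. The Epcam-positive pair did not agree on them, with 4377 CPM in replicate 1 and 40489 CPM in replicate 2, and the Epcam-negative libraries held 3998 and 4134 CPM. Replicate 1 resembled the Epcam-negative libraries in this sum, although its Epcam level (4.80 CPM) was above theirs (0.56 and 0.29 CPM) and below that of replicate 2 (30.6 CPM). The day 10 libraries held Epcam at 5.03, 5.05 and 5.53 CPM, so replicate 1 was not above them. In 3 libraries, namely replicate 2 of the Epcam-positive group and the fetal TEC pair, the rank correlation of a gene's level with its transcript length, taken across genes, was between -0.156 and -0.23, against 0.233 to 0.301 in the other 10 libraries. These 3 libraries thus favoured short transcripts, and the member calls that rest on them are also given with a transcript length offset or without them. The counts of libraries that do not overlap have no such version. The sums of 12 macrophage markers were 3026 and 3215 CPM in MEF, 11.8 to 18.1 CPM at day 2, at day 10 and in the Epcam-negative group, 222 and 76.5 CPM in the Epcam-positive group, and 547 and 563 CPM in fetal TEC. Of these 12 markers, 5 to 7 were at 0 in each day 2, day 10 and Epcam-negative library, among them C1qa and Adgre1, and 0 were at 0 in MEF and fetal TEC. Fibroblast markers (10 genes) summed to 62491 and 73119 CPM in MEF, against 4503 and 2840 CPM in fetal TEC. Among the other cultures, Epcam-positive replicate 1 was highest (47019 CPM) and Epcam-positive replicate 2 lowest (7076 CPM). Between them lay day 2 (12693 and 13016 CPM), day 10 (22915 to 23780 CPM) and the Epcam-negative group (19762 and 17564 CPM). The sum of 8 proliferation genes was 798 and 1152 CPM in MEF, 1111 and 1011 CPM at day 2, and 284 to 299 CPM at day 10. It was 173 to 336 CPM in the sorted groups and 1128 and 981 CPM in fetal TEC. In the fetal TEC libraries, 8 thymocyte genes summed to 1220 and 553 CPM, against 2.78 CPM or less in every other library. The X-inactivation transcript Xist was at 688 to 2475 CPM in MEF and the Epcam-negative group and at 1.27 CPM or less at day 2, at day 10 and in the Epcam-positive group, with 6.17 and 10.6 CPM in fetal TEC. The Y-linked gene Ddx3y was at 22.1 CPM or more in fetal TEC, at day 2, at day 10 and in the Epcam-positive group, and at 0.0144 CPM or less in MEF and the Epcam-negative group. Sex and group cannot be told apart in comparisons across that line, which include Epcam-positive against Epcam-negative and, against MEF, day 2, day 10 and fetal TEC. The X-linked members are Nsdhl and Ebp.

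Promoter sequences of 4 members are shown because the levels of these genes carry the main contrasts below: Hmgcs1, Idi1 and Msmo1 among the enzymes with the largest increases, and Abca1 as the pump with the widest fall. Each runs 5′ to 3′ over the 250 bases before the RefSeq transcription start on GRCm38.p6. Capitals mark the sterol regulatory element TCACNCCAC, which SREBP proteins bind, and the CCAAT box (ATTGG on the other strand), which nuclear factor Y binds. The windows lie at chr13:119690101-119690350 (plus strand) for Hmgcs1, chr13:8885356-8885605 (plus strand) for Idi1, chr8:64733579-64733828 (minus strand) for Msmo1 and chr4:53159896-53160145 (minus strand) for Abca1.
Hmgcs1: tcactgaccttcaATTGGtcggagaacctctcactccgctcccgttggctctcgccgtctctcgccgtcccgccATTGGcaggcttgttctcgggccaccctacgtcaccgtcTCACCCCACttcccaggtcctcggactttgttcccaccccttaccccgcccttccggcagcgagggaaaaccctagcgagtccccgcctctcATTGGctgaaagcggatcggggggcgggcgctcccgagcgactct
Idi1: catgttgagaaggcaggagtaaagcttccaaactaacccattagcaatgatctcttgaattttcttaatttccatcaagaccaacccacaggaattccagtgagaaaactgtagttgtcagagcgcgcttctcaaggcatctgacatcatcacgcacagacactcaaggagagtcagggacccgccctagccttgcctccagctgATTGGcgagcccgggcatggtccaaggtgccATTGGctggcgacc
Msmo1: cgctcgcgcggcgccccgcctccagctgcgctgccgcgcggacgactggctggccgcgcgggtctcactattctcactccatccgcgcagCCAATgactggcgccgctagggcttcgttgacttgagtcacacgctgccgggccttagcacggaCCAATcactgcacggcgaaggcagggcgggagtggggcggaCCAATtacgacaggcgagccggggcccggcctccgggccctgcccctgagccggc
Abca1: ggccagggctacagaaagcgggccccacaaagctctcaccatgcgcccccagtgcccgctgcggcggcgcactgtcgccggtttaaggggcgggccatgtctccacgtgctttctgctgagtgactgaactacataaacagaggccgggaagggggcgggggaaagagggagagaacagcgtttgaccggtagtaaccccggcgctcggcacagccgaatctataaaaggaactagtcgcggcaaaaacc
The Hmgcs1 promoter held 1 sterol regulatory element, at bases -137 to -129, and 3 CCAAT boxes. Idi1 held 2 CCAAT boxes and Msmo1 held 3, all in these windows, while the Abca1 window held neither motif.

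RefSeq promoter windows (250 bases before to 50 after the start) were found for 24 of the 30 members. Both strands were searched, and these motifs were counted without regard to one another. The letters TCACNCCAC stood in 1 of the 24 genes (Hmgcs1), against 1.44% of 27025 genes. CCAAT stood in 19 of 24 (79.2%), against 41.1% of all genes, and the E-box CACGTG in 6 of 24 (25%), against 8.09%. The exact letters of a liver X receptor element (AGGTCA repeated after a gap of 4 bases) stood in 0 of 24, against 0.0148% of all genes. Elements that depart from these letters were not searched for, so the 0 does not show that Abca1 or any other member lacks one. These counts describe letters in a short window, and no binding was measured here.

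The early mevalonate enzymes had their lowest group means in MEF. Hmgcs1, which makes HMG-CoA, lies on chromosome 13 at 119690379 to 119708260 (plus strand, GRCm38/mm10). It was at 106 and 40.7 CPM in MEF, 126 and 228 CPM at day 2, 870, 832 and 909 CPM at day 10, 397 and 311 CPM in the Epcam-positive group, 432 and 368 CPM in the Epcam-negative group, and 143 and 122 CPM in fetal TEC. The day 10 libraries stood above all other libraries, and the fetal TEC values lay near the lower of the day 2 values. Acat2, the cytosolic thiolase of the first step, was at 16.6 and 17.2 CPM in MEF, 44.4 and 57.2 CPM at day 2, 29.2, 29.2 and 30.5 CPM at day 10, 28.8 and 42.2 CPM in the Epcam-positive group, 29.2 and 31.7 CPM in the Epcam-negative group, and 64.8 and 100.4 CPM in fetal TEC. Both MEF libraries were lowest and both fetal TEC libraries highest. Acat2 has a near-identical neighbour, Acat3, and no source used here says how shared reads were counted, so its value is uncertain as that of a single gene.

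Mvk, Pmvk and Mvd phosphorylate mevalonate and then decarboxylate it. Their group means were lowest in MEF, at 8.94 ± 5.46, 6.6 ± 1.56 and 8.17 ± 3.61 CPM (SD, n = 2), and highest in fetal TEC. Idi1, the isomerase of the isoprenoid unit, had another course, with 10.5 and 11.3 CPM in MEF, 80.9 and 77.2 CPM at day 2, 61.6, 58.2 and 65.5 CPM at day 10, 30.3 and 5.52 CPM in the Epcam-positive group, 45.1 and 48.3 CPM in the Epcam-negative group, and 22.6 and 35.1 CPM in fetal TEC. Day 2 was its highest group, and no day 2 library overlapped one of MEF. Fdps, which makes farnesyl diphosphate, was at 23.1 and 10.9 CPM in MEF, 53.0 and 71.3 CPM at day 2, 74.8, 77.8 and 79.7 CPM at day 10, 63.5 and 286 CPM in the Epcam-positive group, 67.5 and 81.0 CPM in the Epcam-negative group, and 236 and 253 CPM in fetal TEC. The Epcam-positive pair spanned the range from below the day 10 libraries to above the fetal TEC libraries.

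The enzymes that make squalene and lanosterol had their lowest means in MEF and their highest in fetal TEC. Fdft1, squalene synthase, had group means of 27.8 ± 0.32 CPM in MEF, 63.6 ± 1.1 CPM at day 2 and 64.8 ± 0.96 CPM at day 10 (SD, n = 2, 2 and 3). Sqle, the squalene epoxidase that limits the rate of the later pathway, was at 35.5 and 29.9 CPM in MEF, 93.9 and 98.9 CPM at day 2, 90.9, 87.8 and 93.6 CPM at day 10, 71.8 and 125 CPM in the Epcam-positive group, 77.8 and 88.2 CPM in the Epcam-negative group, and 228 and 291 CPM in fetal TEC. MEF libraries were the lowest and fetal TEC libraries the highest, with a flat stretch at days 2 and 10. Lss, which closes squalene epoxide to lanosterol, was at 19.8 and 13.9 CPM in MEF, 44.2 and 46.0 CPM at day 2, 54.6, 52.1 and 54.4 CPM at day 10, 44.3 and 108 CPM in the Epcam-positive group, 51.3 and 55.2 CPM in the Epcam-negative group, and 88.0 and 91.7 CPM in fetal TEC. Its MEF libraries were again apart from all others.

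Of the enzymes that turn lanosterol into cholesterol, 2 were highest at day 2. Cyp51, the lanosterol demethylase, was at 67.3 and 80.0 CPM in MEF, 182 and 154 CPM at day 2, 120, 120 and 125 CPM at day 10, 75.6 and 51.1 CPM in the Epcam-positive group, 83.0 and 87.6 CPM in the Epcam-negative group, and 121 and 155 CPM in fetal TEC. It was the 1 enzyme of 18 whose lowest group mean was not in MEF, its Epcam-positive mean being lower. The share of all genes with their lowest group mean in MEF is not given here, so this count cannot be read as particular to the enzymes. Msmo1, the methylsterol oxidase, was at 28.1 and 27.7 CPM in MEF, 126 and 123 CPM at day 2, 92.2, 91.6 and 96.6 CPM at day 10, 64.4 and 62.5 CPM in the Epcam-positive group, 80.9 and 87.1 CPM in the Epcam-negative group, and 30.4 and 30.8 CPM in fetal TEC. Its fetal TEC level was near that of MEF, unlike Sqle and Lss just before it in the pathway. The remaining late enzymes are Tm7sf2, Nsdhl, Hsd17b7, Ebp, Sc5d and Dhcr7, which reduce, oxidise or isomerise the sterol ring. Their highest group means were 1.85 (Hsd17b7) to 8.81 (Tm7sf2) times their MEF means. For Tm7sf2, Ebp, Sc5d and Dhcr7 the highest group was Epcam-positive. Its length-skewed replicate 2 there held 1.93, 4.71, 2.84 and 1.93 times the level of replicate 1. Tm7sf2 shares exon sequence on the same strand with Vps51, and its fetal TEC libraries differed widely, at 7.08 and 0.122 CPM. Exons of Fdft1, Cyp51, Lss and Srebf1 overlap those of a counted gene on the other strand, and no source used here says whether counting used strand. Those of Hmgcs1, Idi1, Scap and Npc1 overlap opposite-strand genes whose symbols were not counted. Fdps shares exon sequence on the same strand with Gm43738, which was not counted under that symbol.

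**Figure D1:**
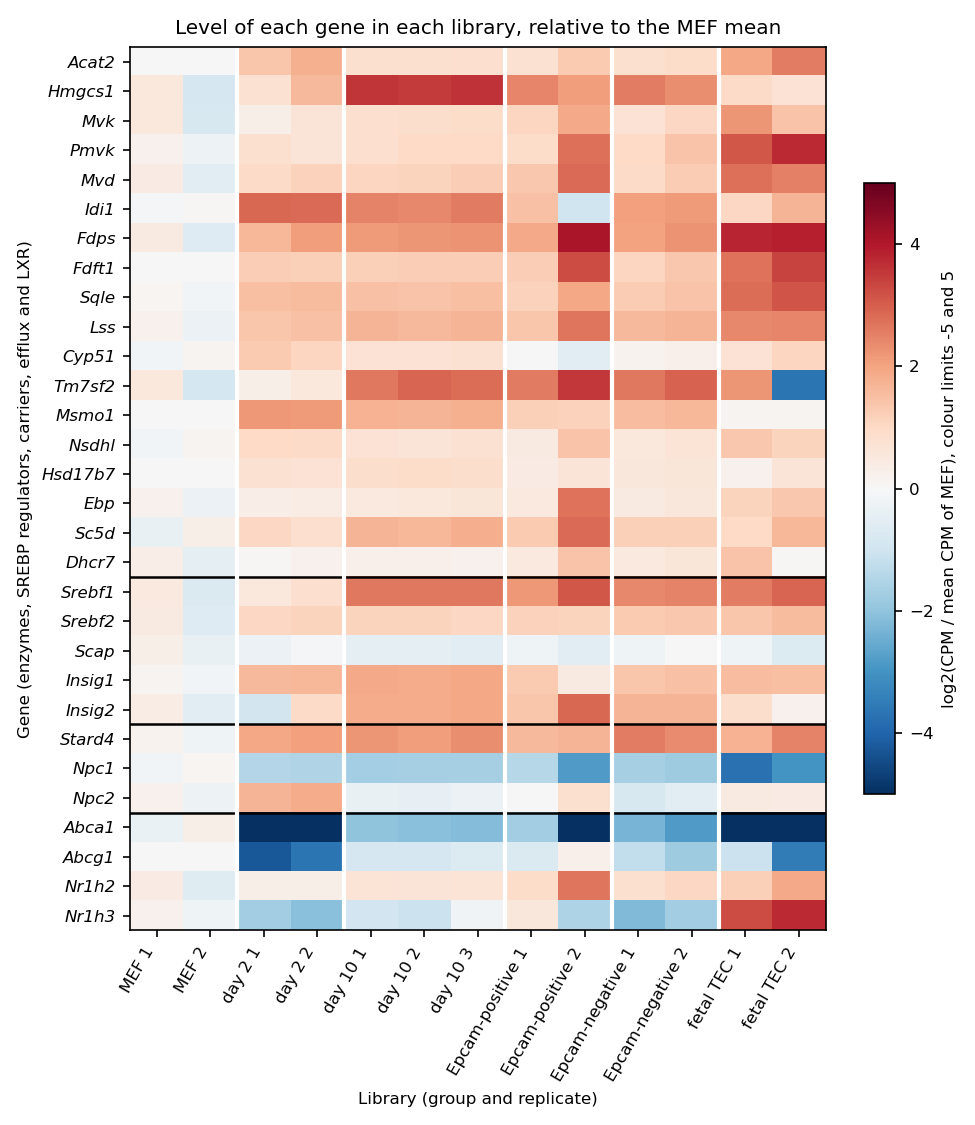
Level of each of the 30 genes (vertical axis) in each of the 13 libraries (horizontal axis), as log2 of CPM over the mean CPM of the 2 MEF libraries; black lines divide enzymes, SREBP regulators, carriers, and efflux and liver X receptor genes. Most enzyme rows are red to the right of MEF, while Npc1, Abca1 and Abcg1 are blue at day 2 and day 10, and Epcam-positive replicate 2 departs from replicate 1.

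Of the 5 SREBP regulators, 4 had their lowest group mean in MEF, and Scap had its highest there. Again no share of all genes is given to set beside this count. Srebf1 encodes SREBP-1, which acts mainly on fatty acid genes. Its level was 68.9 and 29.5 CPM in MEF, 70.9 and 88.9 CPM at day 2, 306, 307 and 308 CPM at day 10, 220 and 426 CPM in the Epcam-positive group, 263 and 278 CPM in the Epcam-negative group, and 289 and 374 CPM in fetal TEC. Day 2 lay close to MEF, and all later groups lay well above both. Srebf2 encodes SREBP-2, the main activator of cholesterol synthesis, and was at 121 and 56.2 CPM in MEF, 183 and 193 CPM at day 2, 192, 191 and 181 CPM at day 10, 195 and 193 CPM in the Epcam-positive group, 217 and 227 CPM in the Epcam-negative group, and 233 and 266 CPM in fetal TEC. No later library reached down to MEF, but the MEF libraries differed by a ratio of 2.16. Scap, the SREBP escort, averaged most in MEF (90.2 ± 28.7 CPM, SD, n = 2) and least at day 10 (63.6 ± 1.77 CPM, SD, n = 3).

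Insig1, which retains Scap and is itself switched on by SREBP, was at 17.1 and 14.1 CPM in MEF, 48.3 and 49.4 CPM at day 2, 57.3, 56.3 and 59.3 CPM at day 10, 38.5 and 21.5 CPM in the Epcam-positive group, 41.2 and 43.1 CPM in the Epcam-negative group, and 45.7 and 43.8 CPM in fetal TEC. Each later library lay above both of MEF. Its relative Insig2 was at 28.1 and 15.2 CPM in MEF and at 77.6, 77.4 and 82.0 CPM at day 10, with day 2 libraries far apart at 11.5 and 42.0 CPM.

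The carriers went in different directions. Stard4 moves cholesterol through the cytosol and is a known SREBP target. It was at 9.11 and 7.02 CPM in MEF, 31.1 and 33.4 CPM at day 2, 36.9, 34.2 and 40.4 CPM at day 10, 24.6 and 26.4 CPM in the Epcam-positive group, 47.8 and 41.0 CPM in the Epcam-negative group, and 27.2 and 45.5 CPM in fetal TEC. Every later library was above the MEF pair. Npc1 lets cholesterol out of lysosomes and was at 156 and 182 CPM in MEF, 61.5 and 58.8 CPM at day 2, 51.4, 53.8 and 53.4 CPM at day 10, 62.7 and 23.7 CPM in the Epcam-positive group, 52.9 and 49.9 CPM in the Epcam-negative group, and 12.7 and 21.3 CPM in fetal TEC. All later libraries lay below MEF. Npc2 hands lysosomal cholesterol to Npc1. It was at 254 and 180 CPM in MEF, 700 and 786 CPM at day 2, 167, 165 and 176 CPM at day 10, 220 and 377 CPM in the Epcam-positive group, 124 and 149 CPM in the Epcam-negative group, and 293 and 288 CPM in fetal TEC. Npc2 peaked at day 2, where Npc1 was below MEF and above the day 10 libraries.

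Abca1, which loads cholesterol onto lipoproteins, lies on chromosome 4 at 53030787 to 53159895 (minus strand, GRCm38/mm10). It was at 280 and 429 CPM in MEF, 7.38 and 8.56 CPM at day 2, 88.8, 83.2 and 78.4 CPM at day 10, 106 and 0.539 CPM in the Epcam-positive group, 71.6 and 49.9 CPM in the Epcam-negative group, and 6.62 and 2.96 CPM in fetal TEC. Both day 2 libraries were far under MEF, and the day 10 libraries lay between the day 2 and MEF libraries. Abcg1, the pump that passes cholesterol to mature lipoprotein particles, had the same order of these 3 groups, with 30.8 and 30.7 CPM in MEF, 1.61 and 2.42 CPM at day 2, 17.2, 17.0 and 19.0 CPM at day 10, 18.6 and 36.5 CPM in the Epcam-positive group, 13.1 and 8.94 CPM in the Epcam-negative group, and 14.6 and 2.72 CPM in fetal TEC. Nr1h3, the liver X receptor alpha that is abundant in macrophages and liver, was at 1.53 and 1.14 CPM in MEF, 0.399 and 0.312 CPM at day 2, 0.681, 0.641 and 1.19 CPM at day 10, 1.97 and 0.462 CPM in the Epcam-positive group, 0.287 and 0.400 CPM in the Epcam-negative group, and 12.9 and 17.6 CPM in fetal TEC. Fetal TEC alone was above 2 CPM. Nr1h2, the widely expressed liver X receptor beta, was lowest in MEF (36 ± 17.1 CPM, SD, n = 2) and highest in the Epcam-positive group, whose libraries held 68.6 and 232 CPM. Macrophages express Abca1, Abcg1, Nr1h3 and Npc2. The macrophage marker sum was high in MEF and fetal TEC and low, at 11.8 to 14.2 CPM, in the day 2 and day 10 libraries. The part of those cells in the levels of these 4 genes was not tested.

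**Figure D2:**
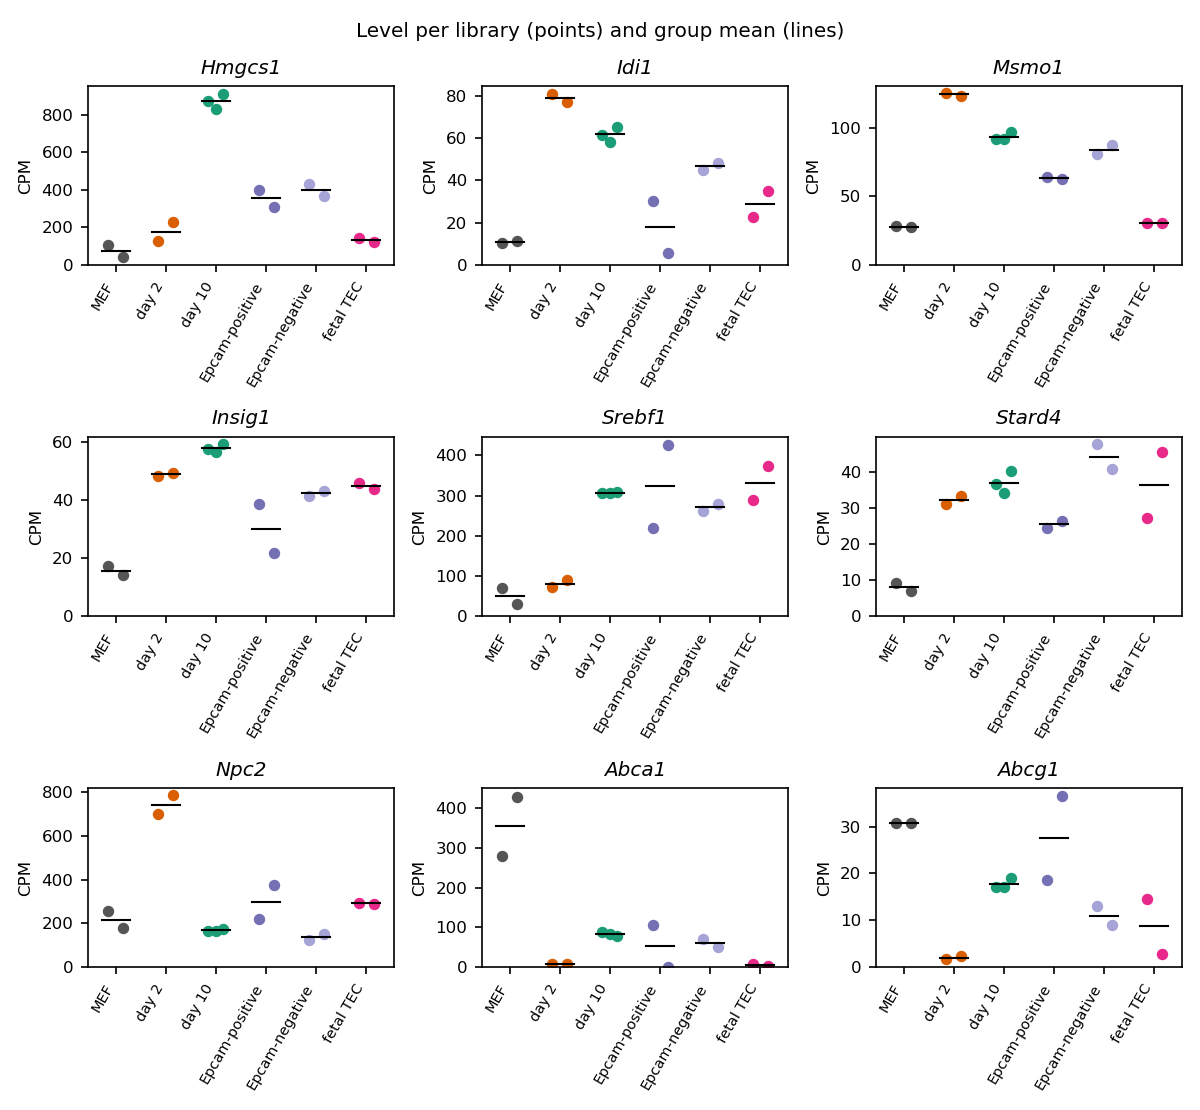
CPM of 9 genes (vertical axes, each from 0) in the 6 groups (horizontal axes); points are libraries and lines are group means. Hmgcs1 is highest at day 10, Idi1, Msmo1 and Npc2 at day 2, and Abca1 and Abcg1 are high in MEF and low at day 2.

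Levels were also taken per kilobase of each gene's longest annotated transcript, so close ranks depend on that choice. On this scale Hmgcs1 was the most abundant member at day 10, at a mean of 251 CPM per kb. Srebf1 at 71.4 and Fdps at 56.0 CPM per kb came after it. At day 2 Npc2 led at 225 CPM per kb, with Hmgcs1 at 51.1 CPM per kb. In MEF Npc2 (65.7), Abca1 (34.6) and Npc1 (32.3 CPM per kb) led, and Hmgcs1 stood at 21.2 CPM per kb.

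At day 2, 8 members rose, 1 fell and 21 did not pass the threshold of adjusted p under 0.05 against MEF. Here and below, rose and fell mean higher and lower than in the MEF libraries. These were untreated, and they differ from day 2 in Xist, Y-linked genes and macrophage markers. Effects of Cre delivery cannot be told apart from these differences. Of all 17004 genes tested, 5.52% passed (2.87% higher, 2.65% lower). The members' median log2 change was 0.96, against 0.00 over all genes. The rises were in 5 enzymes, in Insig1, and in the carriers Stard4 and Npc2. Msmo1 rose by 2.16 ± 0.23 on the log2 scale (SE, adjusted p = 0.000825), Idi1 by 2.86 ± 0.63 (adjusted p = 0.0298), and Stard4 by 2.00 ± 0.32 (adjusted p = 0.00636). Acat2 rose by 1.59 ± 0.32, Sqle by 1.56 ± 0.31 and Cyp51 by 1.19 ± 0.28, with adjusted p of 0.0183, 0.0182 and 0.0386. Insig1 rose by 1.65 ± 0.31 (adjusted p = 0.0139) and Npc2 by 1.78 ± 0.32 (adjusted p = 0.0115).

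Abcg1 was the 1 member that fell at day 2 (log2 change -3.93 ± 0.73, adjusted p = 0.0138). Abca1 had the widest difference of all members and a wide error, with a log2 change of -5.48 ± 1.61 (adjusted p = 0.0876). It passed without the 3 length-skewed libraries (-5.41 ± 0.29, adjusted p = 8.94e-06), with the length offset (adjusted p = 0.0171) and in DESeq2 (adjusted p = 0.000201). Hmgcs1 (1.27 ± 0.45, adjusted p = 0.152), Srebf1 (0.70 ± 0.43, adjusted p = 0.48) and Srebf2 (1.08 ± 0.34, adjusted p = 0.104) did not pass at day 2. Hmgcs1 passed in DESeq2 (adjusted p = 0.0355) and without the 3 length-skewed libraries (adjusted p = 0.0394), as did Srebf2 (adjusted p = 0.0108 and 0.0166), while Srebf1 passed in neither (adjusted p = 0.437 and 0.101). All 18 enzymes had a positive log2 change, with a median of 1.12. Day 2 libraries lay above both MEF libraries in 20 of 30 members and below both in 4, where 28.9% and 29.1% of all genes did so.

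Without the 3 length-skewed libraries the spread between replicates was smaller, and 18 members rose and 4 fell at day 2 (20.3% and 19.2% of 16300 genes, 39.5% in all). Leaving out day 2 replicate 1, day 2 replicate 2 or MEF replicate 2 brought the count of members called down to 2, 1 and 1 (1.68%, 1.67% and 2.02% of all genes), and leaving out either Epcam-positive library brought it up to 20 (20.8% of all genes). Msmo1 kept its call in all 13 fits that left out 1 library, while Idi1 and Cyp51 each lost theirs in 9 of the 13. The day 2 libraries also carried 10 interferon-induced genes at sums of 6938 and 6636 CPM, against 138 and 267 CPM in MEF. In fetal TEC these sums were 2177 and 3442 CPM, also above MEF. The part of this in the members' changes was not tested for either group. MEF replicate 1 was at least 1.5 times replicate 2 in 11 of the 30 members and the reverse held in 2. The share of all genes that differ this way is not given here, so these counts cannot be read as particular to the members. The spread of this pair limits the precision of every comparison against MEF.

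At day 10, 12 members rose, 1 fell and 17 did not pass against MEF, where 16.0% of all genes passed (9.42% higher, 6.58% lower). The median log2 change of members was 1.01, against 0.00 over all genes. Of the enzymes, 8 rose, at steps from Hmgcs1 to Sc5d. The first enzyme, Acat2 (0.81 ± 0.29, adjusted p = 0.089), the last, Dhcr7 (0.24 ± 0.45, adjusted p = 0.809), and several between them did not pass. Hmgcs1 rose most, by 3.57 ± 0.47 on the log2 scale (adjusted p = 0.00102), followed by Idi1 (2.50 ± 0.60, adjusted p = 0.0202) and Fdps (2.19 ± 0.58, adjusted p = 0.0311). Msmo1 (1.75 ± 0.22, adjusted p = 0.000738), Sc5d (1.73 ± 0.44, adjusted p = 0.0271), Lss (1.67 ± 0.37, adjusted p = 0.0145), Sqle (1.47 ± 0.29, adjusted p = 0.00836) and Hsd17b7 (0.89 ± 0.24, adjusted p = 0.032) made up the rest.

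Among the regulators at day 10, Srebf1 rose by 2.64 ± 0.43 (adjusted p = 0.00339), Insig1 by 1.89 ± 0.30 (adjusted p = 0.00258) and Srebf2 by 1.08 ± 0.32 (adjusted p = 0.0437). Stard4 rose by 2.20 ± 0.31 (adjusted p = 0.0014) and Npc1 fell by 1.68 ± 0.38 (adjusted p = 0.016). Abca1 had a log2 change of -2.09 ± 1.21 (adjusted p = 0.294) and passed without the 3 length-skewed libraries (-2.06 ± 0.21, adjusted p = 0.000116). Day 10 libraries lay above both MEF libraries in 23 of 30 members (35.3% of all genes) and below both in 5 (33.0%). Without the 3 length-skewed libraries, 22 members rose and 3 fell (29.4% and 27.3% of genes, 56.6% in all). The count of members called was 5 without MEF replicate 2 (5.75% of all genes), 8 without MEF replicate 1 (8.78%), 7 without any 1 day 10 library (8.30% to 8.50%), and 22 and 21 without Epcam-positive replicate 1 and 2 (37.2% each). Hmgcs1, Msmo1, Srebf1, Insig1 and Stard4 kept their calls in all 13 such fits. Srebf2 lost its call in 10 of the 13 (log2 changes of 0.63 to 1.72), Fdps and Hsd17b7 in 9 each, and Sc5d in 7.

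**Figure D3:**
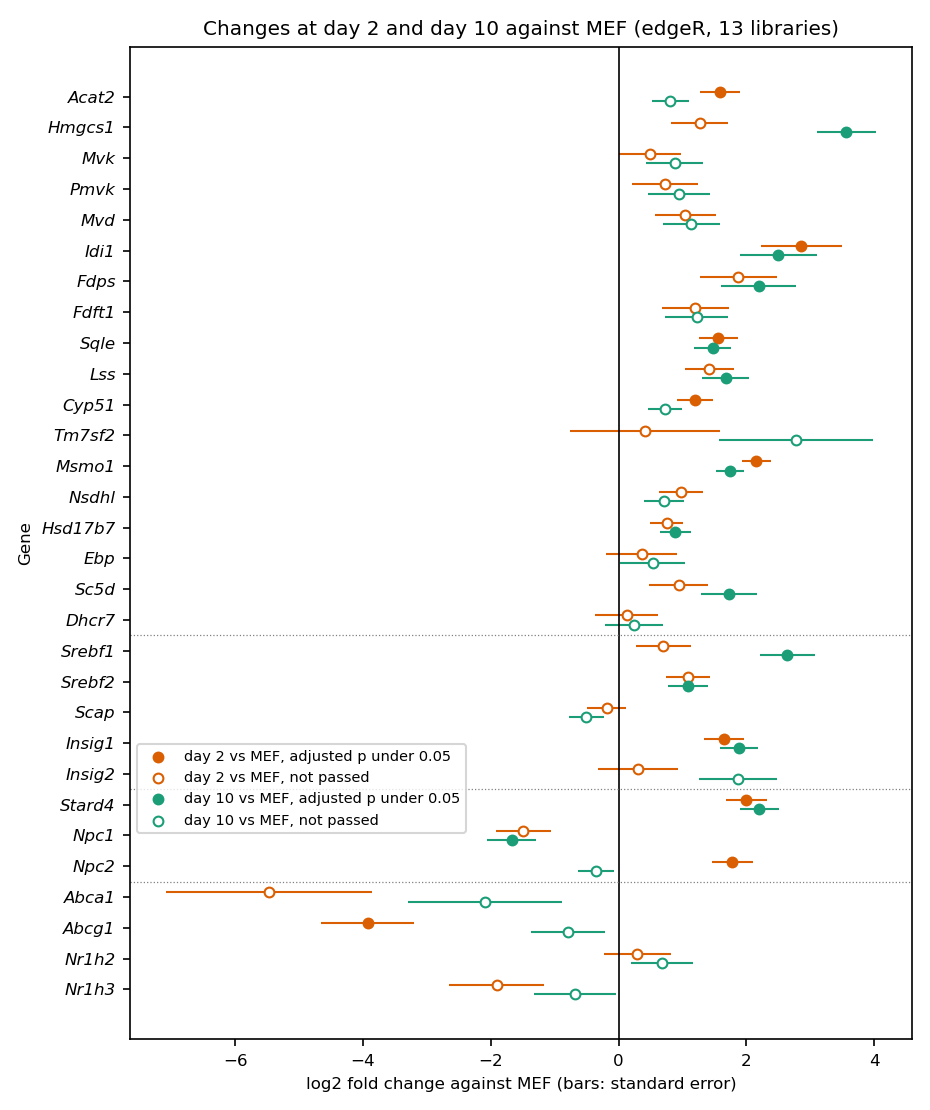
Log2 fold change against MEF (horizontal axis, bars are standard errors) of the 30 genes (vertical axis) at day 2 and at day 10; filled points passed adjusted p under 0.05. All 18 enzymes lie right of 0 at both times, Hmgcs1 and Srebf1 lie farther right at day 10, and Abca1 and Abcg1 lie farther left at day 2.

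Day 10 was also set against day 2 directly, as a test of the later change. Of the 30 members 4 passed, 3 higher and 1 lower, where 12.6% of all genes passed (8.24% higher, 4.41% lower). Hmgcs1 (2.30 ± 0.44, adjusted p = 0.00827), Srebf1 (1.94 ± 0.42, adjusted p = 0.0146) and Abcg1 (3.14 ± 0.68, adjusted p = 0.0155) were higher at day 10, and Npc2 was lower (-2.13 ± 0.28, adjusted p = 0.00121). The median log2 difference of members was 0.19, against 0.02 over all genes. Without the 3 length-skewed libraries 8 members were higher and 5 lower (27.2% and 24.2% of genes, 51.4% in all), and Acat2, Idi1, Cyp51 and Msmo1 were then lower at day 10 (log2 differences of -0.82, -0.39, -0.50 and -0.45). Abca1 was higher at day 10 in that fit (3.35 ± 0.25, adjusted p = 2.41e-05), against a difference of 3.39 ± 1.41 (adjusted p = 0.165) with all 13 libraries. The count of members called was 1 without day 2 replicate 1 (3.15% of all genes), 2 without day 2 replicate 2 (3.49%), and 10 without either Epcam-positive library (32.3% and 32.5%).

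In the Epcam-negative group of day 12, 8 members rose and 1 fell against MEF (7.37% of genes were higher and 4.53% lower, 11.9% in all), with a median log2 change of 1.16 against 0.00. Stard4 (2.46 ± 0.33, adjusted p = 0.00132), Srebf1 (2.46 ± 0.45, adjusted p = 0.0074) and Hmgcs1 (2.44 ± 0.46, adjusted p = 0.00908) had the largest rises. Lss rose by 1.66 ± 0.39, Msmo1 by 1.59 ± 0.23, Insig1 by 1.43 ± 0.31, Sqle by 1.34 ± 0.31 and Srebf2 by 1.32 ± 0.34, with adjusted p of 0.0241, 0.00198, 0.0162, 0.0213 and 0.033. Npc1 fell by 1.72 ± 0.43 (adjusted p = 0.0313). All 18 enzymes lay above both MEF libraries, as did 24 of 30 members (37.0% of all genes), while 5 members lay below both (32.8%). Both groups carry Xist here, unlike day 2 and day 10 against MEF. Without the 3 length-skewed libraries 21 members rose and 5 fell (28.6% and 24.6% of genes, 53.2% in all). The count of members called was 3 without MEF replicate 2 (4.15% of all genes), 3 and 4 without Epcam-negative replicate 1 and 2 (4.02% and 4.07%), and 22 without either Epcam-positive library (33.1% and 32.9%). Npc1 lost its call in 9 of the 13 fits that left out 1 library and Srebf2 in 8.

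The Epcam sort sets cells with the epithelial marker against cells without it, but here the groups also differ in sex-linked transcripts. The Epcam-positive libraries held Xist at 1.27 and 0 CPM and Ddx3y at 128 and 43.3 CPM. In the Epcam-negative libraries Xist was at 923 and 688 CPM and Ddx3y at 0.0144 and 0 CPM. The groups thus cannot be read as fractions of one culture that differ in the marker alone. In edgeR, 0 of 30 members passed between the Epcam-positive and Epcam-negative groups, where 0.259% of all genes did (0.241% higher, 0.0176% lower). Unadjusted p was under 0.05 for 8 members, and DESeq2 called 2 (10.2% of all genes). The share of all genes at that unadjusted p is not given here, so the 8 cannot be read as particular to the members. Npc2 had the smallest p, with a log2 difference of 1.12 ± 0.32 (adjusted p = 0.185). Within the Epcam-positive group, the ratio of replicate 2 over replicate 1 was 4.71 for Ebp, 4.49 for Fdps, 4.08 for Fdft1 and 3.57 for Pmvk, and 0.182 for Idi1 and 0.00509 for Abca1. Without replicate 1 the count of members called was 17 (11 higher and 6 lower), where 53.5% of all genes passed (23.1% higher, 30.4% lower), and without replicate 2 it was 1 (2.80%). Without all 3 length-skewed libraries, which leaves the lone Epcam-positive replicate 1 with the spread of the other groups, Nr1h3 was higher (2.46, adjusted p = 0.0135), and Idi1 (-0.66, adjusted p = 0.0268) and Stard4 (-0.89, adjusted p = 0.0353) were lower, where 10.1% of genes passed (7.33% higher, 2.80% lower).

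Fetal TEC, the positive control, differed from MEF in 57.8% of all genes (31.5% higher, 26.3% lower). Of the members 17 were higher, 3 lower and 10 did not pass, with a median log2 difference of 1.38 against 0.18 over all genes. Of the enzymes, 11 were higher. Fdps (3.85 ± 0.65, adjusted p = 0.00167), Pmvk (3.45 ± 0.57, adjusted p = 0.00142), Fdft1 (3.08 ± 0.56, adjusted p = 0.00227), Sqle (2.99 ± 0.33, adjusted p = 0.000187) and Mvd (2.64 ± 0.50, adjusted p = 0.00288) were highest. Lss (2.42), Acat2 (2.29), Mvk (1.87), Sc5d (1.36), Nsdhl (1.24) and Cyp51 (0.90) followed. Hmgcs1 and Msmo1 did not pass here. Both fetal TEC libraries lay above the MEF pair in 23 of 30 members (41.7% of all genes) and below it in 3 (38.2%).

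Among the other roles, Srebf1 (2.75 ± 0.45), Stard4 (2.17 ± 0.33), Insig1 (1.52 ± 0.31) and Srebf2 (1.49 ± 0.34) were higher in fetal TEC than in MEF, as were Nr1h3 (3.51 ± 0.77) and Nr1h2 (1.60 ± 0.54). Abca1 (-6.21 ± 1.67, adjusted p = 0.0119), Npc1 (-3.31 ± 0.46, adjusted p = 0.000641) and Abcg1 (-1.82 ± 0.67, adjusted p = 0.0403) were lower. These 3 have the longest transcripts of the 30 members, at 10262, 5224 and 5832 bases, and both fetal TEC libraries favour short transcripts. With the length offset, Abca1 (-3.59, adjusted p = 0.0143) and Npc1 (-1.83, adjusted p = 0.00227) kept their calls and Abcg1 did not. Sqle stayed at 2.59, Fdps came to 2.27, Pmvk to 1.72 and Mvd to 1.33, all still called, while Mvk, Nsdhl and Nr1h2 lost their calls. Other changes grew with the offset, to 3.54 for Lss, 3.50 for Fdft1, 2.59 for Sc5d and 1.49 for Cyp51 among the enzymes, and to 3.63 for Srebf1, 3.59 for Stard4 and 2.87 for Srebf2. Hsd17b7 was called with it (1.55, adjusted p = 0.0246). The order of the enzymes thus depends on the offset, with Fdps and Pmvk leading under TMM scaling and Lss and Fdft1 with the offset. Msmo1 changed direction, at 0.14 with TMM scaling (not called), 0.27 in DESeq2 (adjusted p = 0.0254, where the median of all genes was 0.32) and -0.97 with the offset (adjusted p = 0.008). With the offset 15 members were higher and 3 lower, where 51.2% of all genes passed (26.3% higher, 25.0% lower). Abcg1 lost its call in 10 of the 13 fits that left out 1 library and Sc5d in 5.

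**Figure D4:**
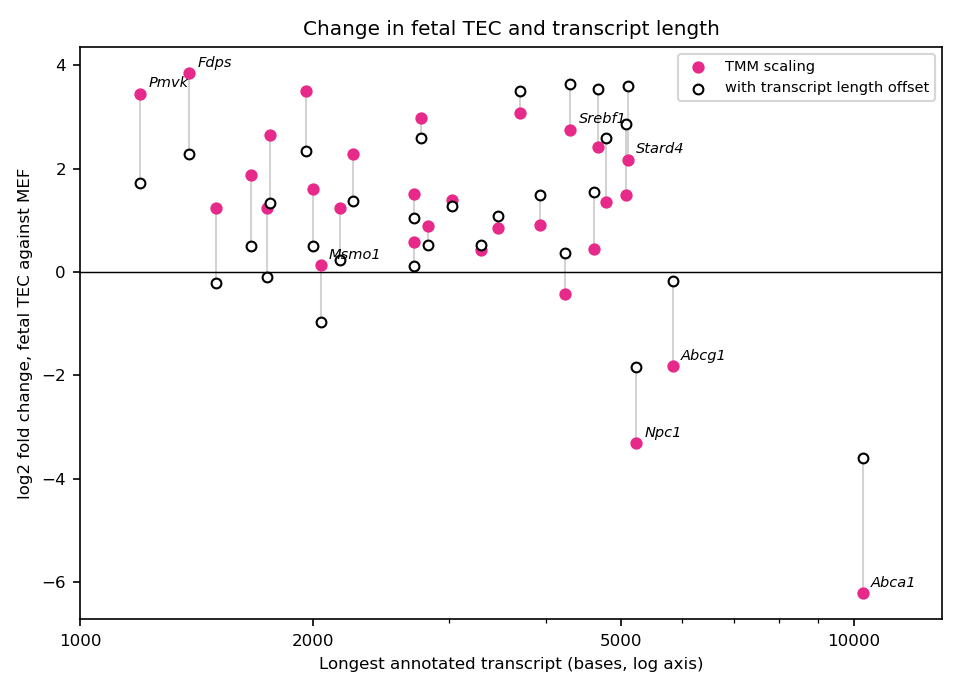
Log2 fold change of the 30 genes in fetal TEC against MEF (vertical axis) by the length of the longest annotated transcript (horizontal axis, log scale), with TMM scaling (filled) and with a transcript length offset (open), joined by grey lines. The offset lowers the change of short transcripts such as Pmvk and Fdps and raises that of long ones such as Abca1, Npc1 and Stard4.

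The cultures were also set against fetal TEC, to ask how near they come to it. At day 10, 4 members were higher and 8 lower than in fetal TEC, where 59.3% of genes passed (27.6% higher, 31.7% lower). Hmgcs1 (2.71 ± 0.45, adjusted p = 0.0012), Msmo1 (1.61 ± 0.22, adjusted p = 0.000422), Npc1 (1.64 ± 0.41, adjusted p = 0.00787) and Abca1 (4.12 ± 1.47, adjusted p = 0.035) were higher at day 10. Pmvk (-2.51 ± 0.47), Fdft1 (-1.86 ± 0.47), Fdps (-1.66 ± 0.53), Sqle (-1.51 ± 0.27), Mvd (-1.50 ± 0.43), Acat2 (-1.48 ± 0.28), Npc2 (-0.78 ± 0.28) and Nr1h3 (-4.19 ± 0.68) were lower. With the length offset Hmgcs1 (2.48) and Msmo1 (2.59) stayed higher, and Pmvk (-1.04), Fdft1 (-2.31), Sqle (-1.17) and Nr1h3 (-3.14) stayed lower. Mvd, Fdps, Acat2, Npc1, Npc2 and Abca1 lost their calls. Srebf2 (-1.81), Lss (-1.90), Stard4 (-1.41), Scap (-0.90) and Cyp51 (-0.79) were lower with the offset alone, and Insig2 (1.70) and Insig1 (0.78) higher. The offset thus gave 4 members higher and 9 lower, where 54.0% of all genes passed (25.1% higher, 28.9% lower). The count of members called was 21 without either Epcam-positive library (72.4% and 72.2% of all genes). Abca1 lost its call in 11 of the 13 fits that left out 1 library, Npc2 in 9 and Fdps in 5.

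The Epcam-positive group had 3 members higher and 4 lower than fetal TEC, where 35.6% of genes passed (19.2% higher, 16.4% lower). Hmgcs1 (1.42 ± 0.45, adjusted p = 0.0343), Npc1 (1.35 ± 0.43, adjusted p = 0.0354) and Msmo1 (1.05 ± 0.23, adjusted p = 0.00752) were higher in the Epcam-positive group, and Nr1h3 (-3.64 ± 0.78), Sqle (-1.40 ± 0.31), Acat2 (-1.22 ± 0.31) and Cyp51 (-1.12 ± 0.28) were lower. With the length offset, Npc1, Sqle and Acat2 lost their calls, and Insig2 (2.29, adjusted p = 0.0209) and Ebp (1.48, adjusted p = 0.0403) were called higher, which gave 4 higher and 2 lower where 40.0% of all genes passed (23.5% higher, 16.5% lower). The count of members called was 13 and 15 without Epcam-positive replicate 1 and 2 (47.3% and 57.4% of all genes), and 4 without fetal TEC replicate 2 (21.7%). Npc1 lost its call in 10 of the 13 fits that left out 1 library (log2 differences of 0.49 to 1.90) and Hmgcs1 in 8. The day 10 and Epcam-positive comparisons share the fetal TEC libraries, and day 2, day 10, Epcam-negative and fetal TEC all share the MEF libraries, so none of these is an independent repeat of another.

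Neighbouring pathways were counted from lists of genes chosen by role. Of 17 fatty acid synthesis genes, which SREBP-1 drives, 1 rose at day 2, 5 rose and 2 fell at day 10, and 2 rose in the Epcam-negative group against MEF. Of all genes, 2.87% rose and 2.65% fell at day 2, 9.42% and 6.58% at day 10, and 7.37% and 4.53% in the Epcam-negative group. Acss2, which makes acetyl-CoA from acetate, rose at day 2 (2.29 ± 0.46, adjusted p = 0.0199), at day 10 (3.69 ± 0.48, adjusted p = 0.000906) and in the Epcam-negative group (4.42 ± 0.51, adjusted p = 0.000609). The stearoyl-CoA desaturases Scd2 (2.54 ± 0.46, adjusted p = 0.00558) and Scd1 (2.22 ± 0.43, adjusted p = 0.00829) rose at day 10. Scd2 was at 563 and 501 CPM in MEF, 506 and 493 CPM at day 2 and 3063, 3020 and 3208 CPM at day 10. The day 10 libraries lay above all of MEF and day 2. The fatty acid desaturases Fads1 (-1.91 ± 0.29, adjusted p = 0.00243) and Fads2 (-1.92 ± 0.55, adjusted p = 0.0489) were lower at day 10 than at day 2. Between the Epcam-positive and Epcam-negative groups 0 of 17 passed in edgeR (1 at an unadjusted p under 0.05), where 0.259% of all genes passed. Fetal TEC had 3 higher and 6 lower against MEF, where 57.8% of all genes passed, and 8 higher and 4 lower with the length offset (51.2% of all genes). Thrsp, 1 of the 17, was at 0 in MEF, at day 2, at day 10 and in the Epcam-positive group and passed the filter on low counts through fetal TEC.

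The isoprenoid branch leaves the pathway before squalene and feeds protein prenylation, dolichol and coenzyme Q. Of its 13 genes, 1 (Idi2) was at 0 in MEF and at day 2 and passed the filter on low counts through fetal TEC. In edgeR, 0 of the 13 passed at day 2, at day 10 and in the Epcam-negative group against MEF, with 0, 2 and 0 at an unadjusted p under 0.05. In these comparisons 5.52%, 16.0% and 11.9% of all genes passed. The median log2 changes of this list were 0.16, 0.31 and 0.41, against 1.12, 1.18 and 1.21 for the 18 cholesterol enzymes. Pdss1, of coenzyme Q synthesis, was lower at day 10 than at day 2 (-1.90 ± 0.48, adjusted p = 0.0278). In fetal TEC against MEF 5 were higher and 3 lower (57.8% of all genes passed), and 2 higher and 4 lower with the length offset (51.2%). Icmt, which methylates prenylated proteins, was lower there (-3.92 ± 0.75, adjusted p = 0.00287, and -2.59 with the offset), as was Nus1, a dolichol synthesis subunit (-2.76 ± 0.59, adjusted p = 0.00477, and -1.67 with the offset).

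Of 15 sterol sensing and accessory genes, 1 rose and 1 fell at day 2, 2 rose and 2 fell at day 10, and 2 rose in the Epcam-negative group against MEF. The shares of all genes that rose and fell were 2.87% and 2.65%, 9.42% and 6.58%, and 7.37% and 4.53% in these comparisons. Rnf145, a ubiquitin ligase of the sterol response, rose at day 2 (0.98 ± 0.24, adjusted p = 0.0476), at day 10 (0.96 ± 0.23, adjusted p = 0.0188) and in the Epcam-negative group (1.55 ± 0.25, adjusted p = 0.00355). Por, the reductase that serves Cyp51 and Sqle, fell at day 10 (-1.47 ± 0.31, adjusted p = 0.0107).

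Of 21 genes of sterol uptake, storage and oxysterol making, 0 rose and 2 fell at day 2, 0 rose and 4 fell at day 10, and 0 rose and 4 fell in the Epcam-negative group against MEF. The shares of all genes that rose and fell were 2.87% and 2.65%, 9.42% and 6.58%, and 7.37% and 4.53% in these comparisons. Ch25h, which makes an oxysterol that activates liver X receptors and blocks SREBP processing, was at 31.9 and 15.9 CPM in MEF, 0.961 and 1.77 CPM at day 2, 5.03, 4.38 and 4.42 CPM at day 10, and 44.0 and 39.1 CPM in fetal TEC. It fell by 4.13 ± 0.48 at day 2 (log2 change -4.13, adjusted p = 0.00115) and by 2.37 ± 0.39 at day 10 (adjusted p = 0.00323). Nceh1, a cholesteryl ester hydrolase, fell at day 2 (-2.04 ± 0.38, adjusted p = 0.0138) and day 10 (-2.06 ± 0.34, adjusted p = 0.00313), and Soat1, which stores cholesterol as esters, fell at day 10 (-1.96 ± 0.37, adjusted p = 0.00715). Macrophages express Ch25h, Nceh1 and Soat1, and their part in these falls was not tested. Fetal TEC had 7 higher and 5 lower against MEF (5 and 5 with the length offset). For the sensing and accessory genes these counts were 4 and 2 (5 and 1 with the offset). Of all genes 57.8% passed, and 51.2% with the offset.

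Between day 10 and day 2, where 12.6% of all genes passed, the counts higher and lower were 1 and 2 of 17 fatty acid synthesis genes, 0 and 1 of 13 isoprenoid genes, 1 and 1 of 15 sensing and accessory genes, and 4 and 1 of 21 uptake and storage genes. Against fetal TEC, day 10 had 9 higher and 1 lower, 3 and 5, 3 and 6, and 5 and 9 in the same lists (59.3% of all genes passed), and the Epcam-positive group had 5 and 2, 2 and 2, 5 and 3, and 4 and 3 (35.6%). With the length offset these were 5 and 5, 5 and 2, 3 and 6, and 5 and 8 at day 10 (54.0% of all genes) and 6 and 5, 3 and 1, 4 and 3, and 4 and 3 in the Epcam-positive group (40.0%). Lpin1 (3.70 ± 0.53, adjusted p = 0.000622) and Mid1ip1 (4.35 ± 0.63, adjusted p = 0.000646), both of lipid synthesis, were higher at day 10 than in fetal TEC, and Stard5, a sterol carrier (-3.07 ± 0.27, adjusted p = 5.3e-05), and Acat1, the mitochondrial thiolase (-2.39 ± 0.27, adjusted p = 0.000176), were lower. With the offset Lpin1 (2.04), Mid1ip1 (5.35), Stard5 (-2.80) and Acat1 (-2.62) kept these calls. In edgeR, 0 genes of the isoprenoid, sensing and uptake lists passed between the Epcam-positive and Epcam-negative groups, where 0.259% of all genes did. Unadjusted p was under 0.05 for 3, 3 and 8 of them, with no share of all genes at that p given here to set beside these counts.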

How the data were processed

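The deposited values are raw counts per gene symbol in 13 libraries. FastQC, Trimmomatic, HISAT2, SAMtools, StringTie, DESeq2 and the mm10 build are named per the submitters' processing notes, with no versions or settings. Columns whose names say no Cre stand for the MEF samples. Cells were sorted by flow cytometry and RNA was column-purified and treated with DNase, per the labels' protocols, whose text is the same under every sample. Levels are CPM with TMM factors (0.7053 to 1.156). Genes were tested with the robust quasi-likelihood F-test of edgeR 4.0.16 (R 4.3.3), with filterByExpr, 1 mean per group, all 13 libraries in one fit, and Benjamini-Hochberg adjustment over 17004 genes. The common dispersion was 0.296. Alternatives were the low-count filter, the scaling, DESeq2 1.42.0, a transcript length offset (GENCODE M21 lengths for 95.7% of symbols), fewer libraries and a replicate block. Replicates differed beyond sampling noise in every pair (median chi-square over its expectation, 1.82 between day 10 replicates 1 and 2 to 880 in the Epcam-positive pair). The members and lists were chosen with earlier results of these data known. All 30 members are accounted for; library values are given for 8 genes chosen by role and for members called in at least 3 of 8 comparisons, and up to 3 genes of each other list are named. Promoters are from RefSeq (GRCm38.p6) and are not used here for Fdps, Fdft1, Sqle, Stard4, Npc1 and Abcg1. Of the sensing and accessory list, 1 gene is counted but not reported here by name.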

Additional observations from a re-analysis of the deposited data

How the results depend on the processing

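No direction reversed in any of the 74 called member values under any alternative. The scaling moved the median of all genes by over 0.1 in some comparisons, at most to 0.17 with library size alone for day 10 against fetal TEC (-0.10 with TMM factors) and to 0.26 with the length offset between the sorted groups (0.00 with TMM factors). The low-count filters, DESeq2 size factors and library size alone kept every count of called members within 1.5 times, and so did the transcript length offset, under which 21 of the 74 values were no longer called. Without the 3 length-skewed libraries the counts were 22 at day 2, 25 at day 10 and 26 in the Epcam-negative group (each against MEF), 13 between day 10 and day 2, and 3 between Epcam-positive and Epcam-negative (39.5%, 56.6%, 53.2%, 51.4% and 10.1% of all genes), against 9, 13, 9, 4 and 0 with all libraries. With the groups compared alone they were 16, 23, 19 and 19 in the first 4 of these (20.4%, 52.4%, 33.1% and 73.2% of all genes), 21 for day 10 against fetal TEC (73.6%; 12 with all libraries) and 0 for Epcam-positive against fetal TEC (1.40%; 7 with all libraries). DESeq2 gave 17 for day 2 against MEF, 7 between day 10 and day 2, 2 between the sorted groups and 11 for Epcam-positive against fetal TEC (2203, 3605, 1729 and 7012 of all 16997 genes). Leaving out 1 replicate at a time gave 1 to 20 at day 2, 5 to 22 at day 10, 3 to 22 in the Epcam-negative group and 15 to 23 in fetal TEC (each against MEF), where 1.67% to 20.8%, 5.75% to 37.2%, 4.02% to 33.1% and 30.8% to 70.7% of all genes passed. It gave 1 to 10 between day 10 and day 2, 0 to 17 between the sorted groups, 9 to 21 (day 10 against fetal TEC) and 4 to 15 (Epcam-positive against fetal TEC), where 3.15% to 32.5%, 0.00% to 53.5%, 44.7% to 72.4% and 21.7% to 57.4% of all genes passed. The highest counts came without an Epcam-positive library. The cause of the other moves was not tested.

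The labels do not tie replicate numbers to a shared culture, and the correlation of same-numbered deviations was -0.215 for day 2 against MEF, 0.116 for Epcam-positive against Epcam-negative, and between -0.0958 and 0.0984 elsewhere, so the numbers were not taken as pairs. With the replicate block the counts were 2 at day 2, 5 at day 10, 4 in the Epcam-negative group and 17 in fetal TEC (each against MEF), 2 between day 10 and day 2, 0 between the sorted groups, 8 (day 10 against fetal TEC) and 4 (Epcam-positive against fetal TEC), where 2.30%, 6.12%, 5.38%, 46.5%, 4.89%, 0.00588%, 41.4% and 21.0% of all genes passed.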
